A study of Rattus norvegicus with 6 samples.

Results

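Oxidative phosphorylation subunits are the nuclear-encoded proteins that build the respiratory chain and the ATP synthase of mitochondria. A list of 44 such genes was examined in Achilles tendons of newborn rats, and 41 of them could be measured, out of 14217 genes measured in all. A gene was measured if a probe set of the array was annotated to that gene alone, and its level was that of its brightest probe set. The measured genes were 20 of 21 for complex I, 4 of 4 for complex II, 6 of 7 for complex III, 6 of 6 for complex IV and 5 of 5 for complex V. Ndufa10, Uqcrb and cytochrome c, Cycs, had only probe sets annotated to several genes and were not analysed. Tendons were taken on post-natal day 1 or day 7 and hybridised to an Affymetrix rat array, with 3 arrays per age and RNA of 2 or more animals on each. The labels name no treatment or genetic change for either age, and no strain or sex. Nothing says that the pools came from separate litters, so p-values measure the spread between these pools.

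In oxidative phosphorylation, complex I takes electrons from NADH and complex II takes them from succinate, an intermediate of the citric acid cycle. Ubiquinone carries the electrons to complex III, cytochrome c carries them on to complex IV, and complex IV passes them to oxygen. Complexes I, III and IV pump protons across the inner mitochondrial membrane, and complex V uses the returning protons to make ATP. A few core subunits are encoded in mitochondrial DNA and were not analysed here. Contracting muscle is rich in mitochondria, whereas mature tendon cells are known for a low oxygen consumption.

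Median intensities over all probe sets ran from 20.5 to 21.1, whereas the 75th percentile was 94.3 to 95.9 on day 1 and lower on every day 7 array, at 84.1 to 91.8. The bacterial trp controls, for which no RNA was expected, read at most 4.76. Tendon genes were high at both ages. The mean intensity of Col1a1, the main chain of type I collagen, was 9866 ± 2553 on day 1 and 13729.5 ± 1171 on day 7 (SD, n = 3), and that of Scx, a transcription factor of the tendon lineage, was 749 ± 147 and 812 ± 20.8. Skeletal muscle genes were also high, with 13294, 11815 and 13285 for the muscle actin Acta1 on day 1 replicates 1, 2 and 3 and 11965, 12900 and 10321 on day 7. The arrays numbered 2 lay nearest to the other age on the first principal component, with scores of -14.8 on day 1 and 14.5 on day 7, against -34.8 and -43.8 on the other day 1 arrays and 35.0 and 44.0 on the other day 7 arrays. Results are therefore also given without both of these arrays, a choice made after seeing the data.

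None of the 41 subunit genes passed the test between day 7 and day 1 (limma, 0 higher and 0 lower at a Benjamini-Hochberg adjusted p under 0.05 over all probe sets). Over all genes, 5.08% were called, 1.93% higher and 3.15% lower. The 274 higher and 448 lower calls became 469 and 314 with each array scaled on its 75th percentile and 352 and 320 with quantile normalization. The adjusted p-values of the subunits ran from 0.116 for Ndufs1 to 0.946 for Cox5a. At an unadjusted p under 0.05, 6 of the 41 (14.6%) were lower and 0 higher, against 17.0% of all genes lower and 10.6% higher. The share of lower subunits was thus near that of the background, and the share of higher ones was below it. The 6 were Ndufs1, Ndufv1, Sdha, Sdhb, Uqcrc1 and Atp5f1d. In 2 of the 41, Ndufv1 and Uqcrc1, all day 7 arrays lay below all day 1 arrays, which held for 19.1% of all genes.

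The estimated changes were small and mostly of a negative sign. The median log2 change, day 7 minus day 1 on the log2(intensity + 1) scale, was -0.23 over the 41 subunits and -0.01 over all genes, and it was -0.10 over the 9607 genes whose probe set was brighter than the median probe set. The estimate was below 0 for 39 of the 41, against 52.0% of all genes, and above 0 for Ndufa1 and Cox5a. Scaling on the 75th percentile, which was lower on day 7, moved the median of all genes from -0.01 to 0.09, and the subunit median was then -0.13 with 34 of the 41 estimates below 0. For 40 of the 41 the 95% interval of the change lay within 2-fold of no change in either direction, which held for 88.4% of all genes. The exception was Ndufs1, with an interval from -1.14 to -0.19. No subunit had an interval that reached a 1.5-fold rise. A test that was not passed does not show that the levels were equal, and these intervals give the changes that the 6 arrays still allow.

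**Figure D1:**
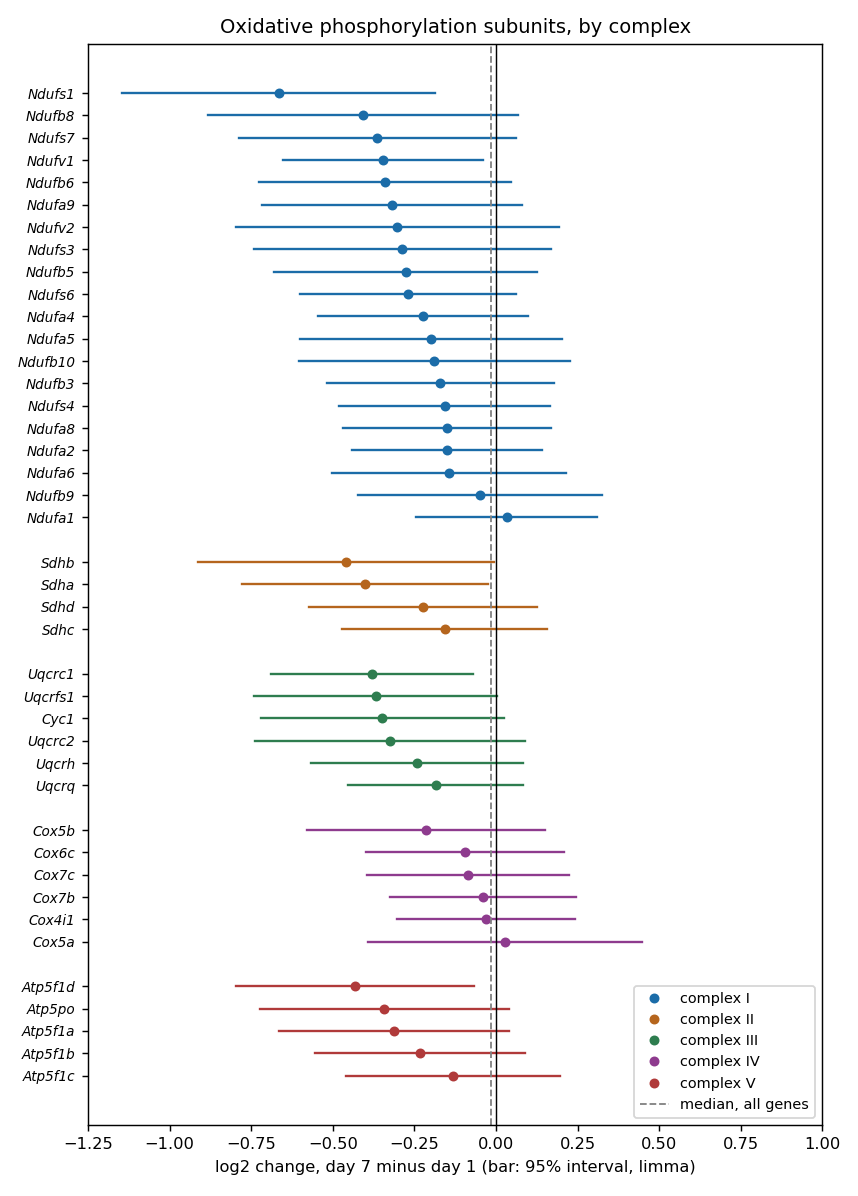
Log2 change from day 1 to day 7 of the 41 measured subunit genes, grouped by complex, with points for the limma estimate and bars for its 95% interval; the dashed line is the median over all genes (-0.01). Most points lie to the left of 0, most intervals include 0, and of the complexes, complex IV has the median closest to 0.

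Complex I receives electrons in a matrix arm of iron-sulfur and flavin subunits, and a membrane arm with many accessory subunits pumps protons. Its 20 measured genes had a median log2 change of -0.25 and a range from -0.67 to 0.03. The largest estimate belonged to Ndufs1, the large iron-sulfur subunit of the matrix arm. Its intensity was 581, 386 and 563 on day 1 replicates 1, 2 and 3 and 301, 399 and 262 on day 7. The ages overlapped only through the arrays numbered 2, since day 1 replicate 2 lay below day 7 replicate 2. Its log2 change was -0.67 (SE 0.21; limma adjusted p = 0.116). Ndufv1, the flavin subunit that binds NADH, read 987, 795 and 901 on day 1 and 674, 795 and 642 on day 7. Its lowest day 1 array and its highest day 7 array differed by less than 1 intensity unit (795.5 and 794.9), and its log2 change was -0.35 (SE 0.13; limma adjusted p = 0.178). The neighbouring flavoprotein subunit Ndufv2 and the iron-sulfur subunits Ndufs3 and Ndufs7 had estimates of -0.30, -0.29 and -0.36.

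Among accessory subunits of complex I, Ndufb6, a membrane arm protein, read 760, 596 and 853 on day 1 and 567, 668 and 502 on day 7, with a log2 change of -0.34 (SE 0.17). The brightest probe set of the complex I list was that of Ndufa4, first isolated with complex I and later assigned to cytochrome oxidase. Probe sets differ in how strongly they bind, so intensities do not rank genes by transcript level. It read 2520, 1969 and 2517 on day 1 and 1934, 2213 and 1832 on day 7, a log2 change of -0.22 (SE 0.14). Ndufa1, a small membrane arm protein needed for assembly, had the only positive estimate of the listed complex I genes, 0.03 (SE 0.12). It read 1573, 1327 and 1654 on day 1 and 1540, 1621 and 1482 on day 7, so that the day 7 arrays lay inside the day 1 range. Ndufb8, another membrane arm protein, had the dimmest probe set, with 71.2, 61.3 and 79.8 on day 1 and 50.9, 71.3 and 40.5 on day 7, all above the negative control. The log2 change of Ndufb8 was -0.41 (SE 0.21), the largest fall of the listed complex I genes after that of Ndufs1. The other 11 complex I genes had estimates between -0.32 for Ndufa9 and -0.05 for Ndufb9.

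Complex II, succinate dehydrogenase, is the only enzyme shared by the citric acid cycle and the respiratory chain, and its 4 genes were all measured. Sdhb, the iron-sulfur subunit, read 1349, 1092 and 1510 on day 1 and 883, 1238 and 781 on day 7. Day 7 replicate 2 lay above day 1 replicate 2, and the other day 7 arrays lay below every day 1 array, with a log2 change of -0.46 (SE 0.20; limma adjusted p = 0.220). Sdha, the flavoprotein that oxidises succinate, read 829, 592 and 815 on day 1 and 558, 627 and 494 on day 7, a log2 change of -0.40 (SE 0.16; limma adjusted p = 0.201). The membrane anchors had smaller estimates. Sdhc read 1288, 1142 and 1458 on day 1 and 1068, 1312 and 1104 on day 7 (log2 change -0.16, SE 0.14). Sdhd read 1603, 1299 and 1803 on day 1 and 1274, 1509 and 1226 on day 7 (log2 change -0.22, SE 0.15). The second probe set of Sdhd, less bright, gave -0.27 (SE 0.20). The ages overlapped in all 4 genes.

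The 6 measured genes of complex III, the ubiquinol-cytochrome c reductase, had the lowest median of the complexes, -0.34, and a narrow range from -0.38 to -0.18. Uqcrc1, a core protein, read 1621, 1333 and 1479 on day 1 and 1056, 1310 and 1047 on day 7, without overlap of the ages. Its log2 change was -0.38 (SE 0.13; limma adjusted p = 0.152). Uqcrfs1, the Rieske iron-sulfur protein, read 1858, 1589 and 1932 on day 1 and 1285, 1723 and 1197 on day 7, a log2 change of -0.37 (SE 0.16). Cyc1, the haem-bearing cytochrome c1, read 1809, 1385 and 1931 on day 1 and 1243, 1545 and 1218 on day 7, a log2 change of -0.35 (SE 0.16). In Uqcrfs1 and Cyc1 the ages again overlapped through the arrays numbered 2. Uqcrq, a small subunit, had the smallest estimate of the 6, -0.18 (SE 0.12). It read 1285, 1124 and 1261 on day 1 and 1027, 1189 and 1015 on day 7. The estimate of Uqcrc2, the other core protein, was -0.33 with the brighter and -0.35 with the dimmer of its probe sets.

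Complex IV is cytochrome c oxidase. The median of its 6 listed genes, -0.06, lay closest to no change of the complexes, with a range from -0.21 to 0.03. The 35 measured genes of the other complexes had a median of -0.28, and this difference between complexes was not tested. It concerns the listed genes only. Ndufa4, kept here in the complex I list though later assigned to cytochrome oxidase, had an estimate of -0.22. Of genes named for cytochrome oxidase outside the list, Cox6a1, Cox6b1, Cox6a2 and Cox8b had estimates of -0.24, -0.26, -0.57 and -0.71. Those of Cox8a, Cox7a2l and Cox7a1 were -0.02, -0.02 and 0.10, and none of these genes was called. The probe set of Cox7a1 was dim, at 11.4 to 17.9. With 75th percentile scaling the estimates of Cox4i1, Cox6c and Cox7c were above 0, at 0.08, 0.01 and 0.02. Cox4i1, the widely expressed form of a regulatory subunit, had the brightest probe set of the 6 and read 2614, 2277 and 2775 on day 1 and 2459, 2674 and 2363 on day 7. Its day 7 arrays lay inside the day 1 range, with a log2 change of -0.03 (SE 0.12; interval from -0.30 to 0.24). Cox5a, a matrix-facing subunit, read 277, 178 and 236 on day 1 and 217, 272 and 211 on day 7, again inside the day 1 range, with a log2 change of 0.03 (SE 0.18). Cox5b, the zinc-binding subunit, had the largest estimate of the 6, -0.21 (SE 0.16). It read 1876, 1454 and 1835 on day 1 and 1378, 1771 and 1317 on day 7. Small membrane-spanning subunits had low estimates as well. Cox6c read 2672, 2211 and 2677 on day 1 and 2307, 2636 and 2136 on day 7 (log2 change -0.09, SE 0.13), and Cox7c read 1167, 896 and 1120 on day 1 and 971, 1076 and 936 on day 7 (log2 change -0.09, SE 0.13). The estimate of Cox7b was -0.04 (SE 0.12).

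Complex V, the ATP synthase, was represented by genes of its catalytic head and stalks. Atp5f1b, the catalytic beta subunit, had the brightest probe set of the 41. It read 4663, 3787 and 4300 on day 1 and 3394, 4216 and 3274 on day 7, a log2 change of -0.23 (SE 0.14). Atp5f1d, the delta subunit of the central stalk, had the largest estimate, -0.43 (SE 0.16; limma adjusted p = 0.165), and read 1926, 1459 and 1948 on day 1 and 1208, 1529 and 1209 on day 7. Atp5po, which joins the head to the peripheral stalk, read 2637, 2073 and 2791 on day 1 and 1887, 2345 and 1692 on day 7 (log2 change -0.34, SE 0.17). Its other probe set lay near the negative control, at 6.46 to 7.77. Atp5f1a, the alpha subunit, read 2396, 1954 and 2352 on day 1 and 1847, 2078 and 1496 on day 7 (log2 change -0.31, SE 0.15). The gamma subunit of the rotor, Atp5f1c, had the smallest estimate of the 5, -0.13 (SE 0.14). It read 2060, 1568 and 1926 on day 1 and 1663, 1882 and 1513 on day 7. In all 5 genes day 7 replicate 2 lay above day 1 replicate 2.

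**Figure D2:**
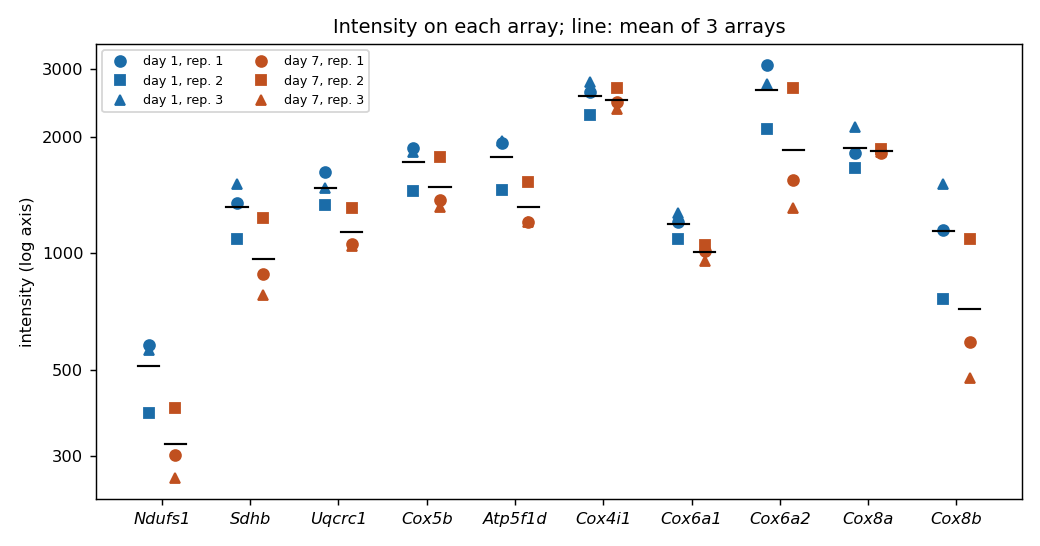
Intensity on each array, on a log axis, of a subunit from each complex, of Cox4i1 and of tissue-dependent cytochrome oxidase isoforms; colours give the age, symbols the replicate and lines the mean of 3 arrays. Day 1 replicate 2 (blue squares) is the lowest day 1 array and day 7 replicate 2 (orange squares) the highest day 7 array in each gene shown; for Ndufs1 these arrays read 386 and 399.

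The spread between arrays of the same age followed a common order in every subunit gene. Day 1 replicate 2 was the lowest day 1 array in 41 of the 41 genes and day 7 replicate 2 the highest day 7 array in 41 of the 41. Over all genes, day 1 replicate 2 was lowest in 37.3%, day 7 replicate 2 was highest in 37.4%, and both held in 19.9%. The median over the 41 genes, relative to each gene's mean over the 6 arrays on the log2 scale, was 0.23 on replicate 1, -0.12 on replicate 2 and 0.24 on replicate 3 of day 1, and -0.20, 0.09 and -0.25 on those of day 7. Day 7 replicate 2 therefore lay between day 1 replicate 2 and the other day 1 arrays. It read above day 1 replicate 2 in 39 of the 41 genes, against 49.4% of all genes. Complexes I to V each showed this order, with medians on day 1 replicate 2 from -0.15 in complex IV to -0.06 in complex V and medians on day 7 replicate 2 from 0.05 in complex III to 0.10 in complex IV. Complex IV had the narrowest spread, from -0.15 to 0.17 over the 6 arrays.

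**Figure D3:**
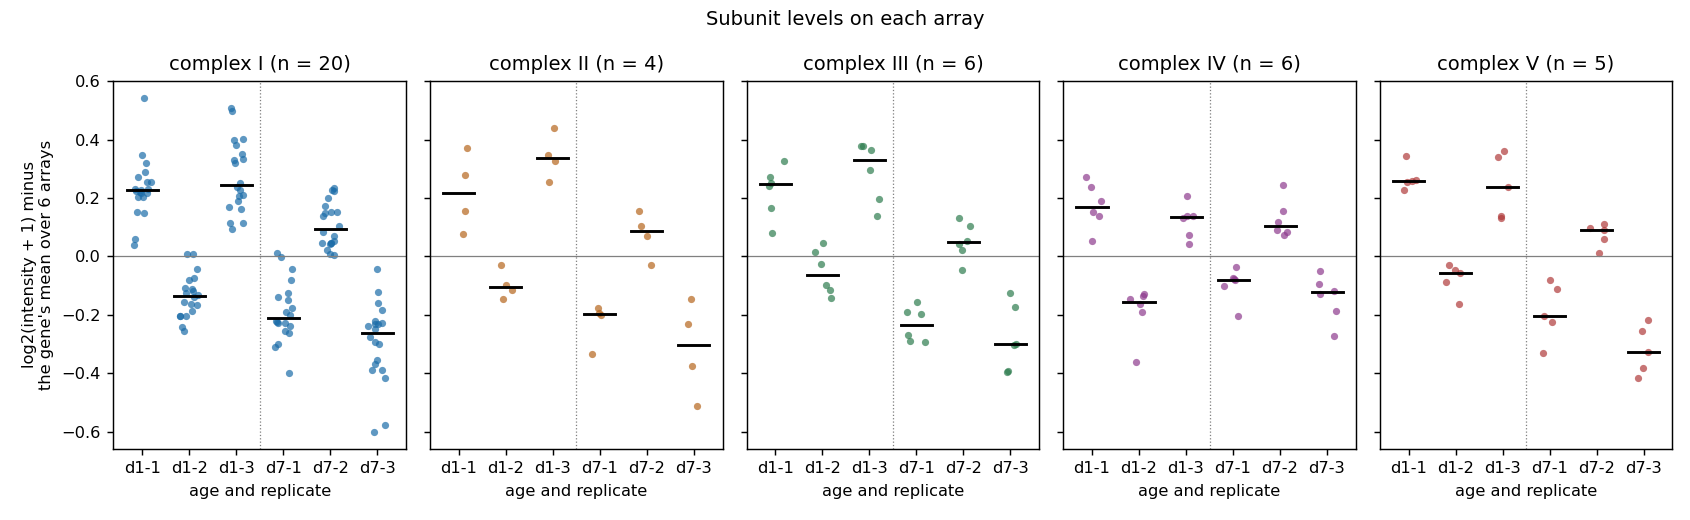
Level of each subunit gene on each array, as log2(intensity + 1) minus the gene's mean over the 6 arrays, by complex; points are genes, black lines the medians, and d1-2 stands for day 1 replicate 2. In each complex the median of day 1 replicate 2 lies below those of the other day 1 arrays, and the median of day 7 replicate 2 above those of the other day 7 arrays.

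Without both arrays numbered 2, a comparison of 2 arrays with 2, the subunit median was -0.47 and that of all genes -0.02. Since day 1 replicate 2 was the lowest day 1 array and day 7 replicate 2 the highest day 7 array in every subunit gene, leaving them out widens the difference by construction, and these values describe the remaining arrays only. Of the 41, 2 were called lower, against 4.28% of all genes. These 2 were Ndufs1 (log2 change -1.02, SE 0.15; limma adjusted p = 0.0300) and Sdhb (-0.78, SE 0.15; limma adjusted p = 0.0492). Without day 1 replicate 2 alone the subunit median was -0.351, and without day 7 replicate 2 alone -0.345, in each case with 0 subunits called.

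Skeletal muscle markers shared part of this order. Of 33 listed muscle genes 32 were measured, and day 1 replicate 2 was the lowest day 1 array and day 7 replicate 2 the highest day 7 array in 29 of them. The muscle median was 0.44, 0.07 and 0.55 on the day 1 arrays, in replicate order, and -0.40, 0.06 and -0.76 on the day 7 arrays. Day 7 replicate 2 read above day 1 replicate 2 in 12 of the 32, unlike the 39 of 41 subunits, and this difference was not tested. The summed intensity of the list ranged from 97366 to 124532 on day 1 and from 63196 to 94809 on day 7. None of its genes was listed at 0, and Myh4, a fast adult myosin, lay near the negative control on all arrays. Ckm, the muscle creatine kinase, read 7543, 6033 and 8361 on day 1 and 3466, 5483 and 2944 on day 7, and Mb, the oxygen store myoglobin, 1861, 840 and 1356 and then 697, 1148 and 534. Of the 32 muscle genes, 25 (78.1%) were lower at an unadjusted p under 0.05, against 17.0% of all genes, and in 18 all day 7 arrays lay below all day 1 arrays (56.2%, against 19.1%). After adjustment 3 fell and 1 rose, against 3.15% and 1.93% of all genes, and the median change was -0.74. Those that fell were the embryonic and neonatal myosins Myh3 (-0.88) and Myh8 (-0.89) and the calcium release channel Ryr1 (-1.08), and the adult fast myosin Myh2 rose (2.71); these 4 were named after their values were seen. The part of muscle RNA in the subunit values was not tested. In these bulk samples fewer cells of a type and less RNA per cell cannot be told apart.

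The order held in 0 of 10 measured tendon genes and in 1 of 14 adipocyte genes. The tendon median was -0.16, 0.06 and -0.64 on the day 1 arrays and 0.46, 0.17 and 0.13 on the day 7 arrays, with summed intensities from 35417 to 55716 and from 59067 to 74637. The adipocyte median was -0.60, -0.62 and -0.79 on the day 1 arrays and 0.80, 0.21 and 1.10 on the day 7 arrays, with summed intensities from 2157 to 2406 and from 3676 to 7302. After adjustment 8 of the 14 adipocyte and 2 of the 10 tendon genes rose, against 1.93% of all genes. None of either list was called lower, against 3.15%. Adipoq, the fat cell hormone adiponectin, read 8.47, 9.72 and 13.5 on day 1 and 385, 188 and 477 on day 7. Ucp1, which defines brown fat, a tissue dense in mitochondria, read 4.48 to 4.63 on day 1 and 4.48 to 5.79 on day 7, near the negative control, as did Elovl3 and Dio2. Cidea, a lipid droplet protein abundant in brown fat, was above it and read 217, 196 and 393 on day 1 and 110, 186 and 108 on day 7, without overlap of the ages and with the subunits' order within each age (log2 change -0.97, SE 0.30; limma adjusted p = 0.117). Cidea was named after its values were seen. The order of the arrays held in none of the 10 cartilage, 7 Schwann cell, 10 macrophage and 9 endothelial genes measured, in 1 of 4 erythroid genes and in 2 of 6 brown fat genes, Cidea and the cytochrome oxidase subunit Cox8b. Of RNA quality measures, the 3'/5' ratio of the beta-actin controls was 2.44, 2.85 and 1.80 on day 1 and 2.40, 2.17 and 3.35 on day 7, and that of Gapdh 1.74, 1.80 and 1.75 and then 2.09, 1.73 and 2.00. Both ratios were lowest, among day 7 arrays, on replicate 2, and highest, among day 1 arrays, on replicate 2. The 5S ribosomal RNA control read 63.2 on day 7 replicate 3 and 28.9 to 36.3 on the other arrays, and day 7 replicate 3 was the lowest of all 6 arrays in 27 of the 41 subunit genes. The part of RNA quality was not tested.

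**Figure D4:**
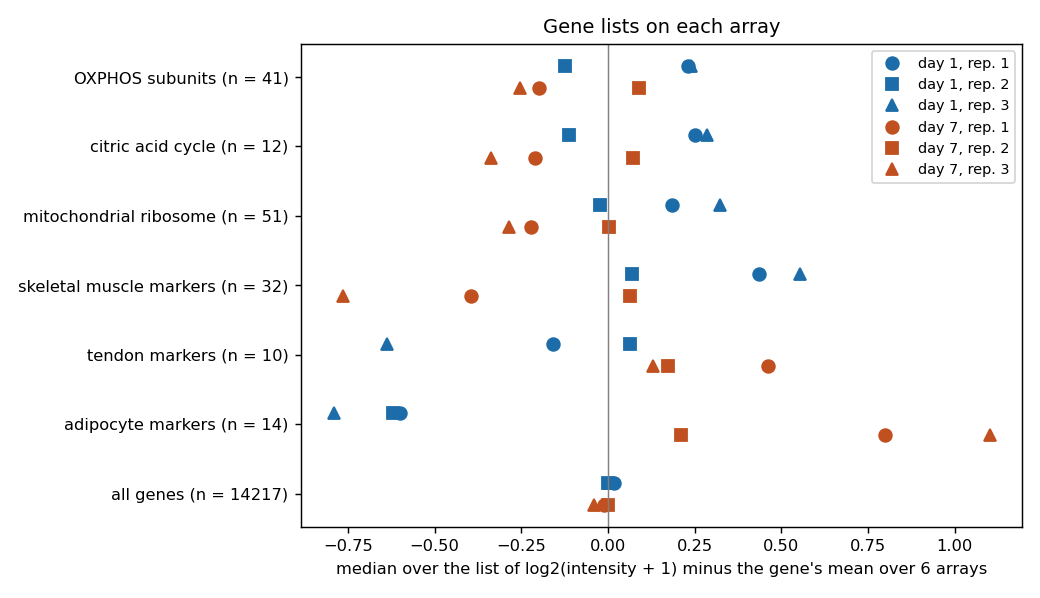
Median of each gene list on each array, as log2(intensity + 1) minus the gene's mean over the 6 arrays; colours give the age and symbols the replicate. The subunits, the citric acid cycle, the mitochondrial ribosome and the muscle markers have their lowest value on day 7 replicate 3 (-0.25, -0.34, -0.29 and -0.76), whereas tendon and adipocyte markers lie higher on day 7.

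Cytochrome oxidase contains a few subunits with separate genes for contractile and for other tissues. The contractile form Cox6a2 read 3079, 2098 and 2748 on day 1 and 1553, 2682 and 1308 on day 7, a log2 change of -0.57 (SE 0.27; limma adjusted p = 0.264). Its widely expressed counterpart Cox6a1 read 1207, 1092 and 1271 on day 1 and 1014, 1051 and 953 on day 7, a log2 change of -0.24 (SE 0.11; limma adjusted p = 0.247), with no overlap of the ages. Cox8b, the other contractile form, which brown fat also uses, read 1152, 764 and 1512 on day 1 and 591, 1088 and 476 on day 7, a log2 change of -0.71 (SE 0.34; limma adjusted p = 0.270). Cox8a, its widely expressed counterpart, read 1825, 1665 and 2129 on day 1 and 1817, 1860 and 1835 on day 7, a log2 change of -0.02 (SE 0.12). Within each age, Cox6a2 and Cox8b varied more between arrays than their counterparts. The difference of the changes was -0.33 for Cox6a2 against Cox6a1 and -0.69 for Cox8b against Cox8a, with exact two-sided permutation p-values of 0.40 and 0.20 (both 0.40 adjusted over the 2 pairs), where 3 arrays against 3 allow no p below 0.10. Without both arrays numbered 2, Cox6a2 (-1.03, limma adjusted p = 0.0328) and Cox8b (-1.31, limma adjusted p = 0.0313) were called lower. That fit, chosen after seeing the data, called 4.28% of all genes lower. In both genes day 1 replicate 2 was the lowest day 1 array and day 7 replicate 2 the highest day 7 array. Leaving these arrays out therefore widens the difference by construction. Cox7a1, the remaining contractile form, was dim, at 11.4 to 17.9. Cox7a2 was not analysed.

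Of 32 further subunits of the complexes, 28 were measured and limma called none, against 3.15% of all genes lower and 1.93% higher. At an unadjusted p under 0.05, 0 were lower and 0 higher, against 17.0% and 10.6% of all genes. Their median was -0.16, with 25 estimates below 0 (89.3%, against 52.0% of all genes). The common order of the arrays held in 27 of the 28, against 19.9% of all genes. The largest estimates were those of Ndufab1, the mitochondrial acyl carrier protein (-0.39), Ndufv3 (-0.37), Ndufb7 (-0.35) and Atp5pb, a peripheral stalk subunit (-0.33). The order thus also appeared in subunits outside the 41.

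Lists of genes that build, feed or regulate the chain were read in the same way. Of 39 measured assembly factors, 1 fell and 0 rose, against 3.15% and 1.93% of all genes, with a median of -0.24. At an unadjusted p under 0.05, 9 (23.1%) were lower, against 17.0% of all genes. Timmdc1, a membrane chaperone of complex I, fell and read 368, 310 and 412 on day 1 and 209, 257 and 206 on day 7, a log2 change of -0.69 (SE 0.15; limma adjusted p = 0.0474). Its day 7 arrays all lay below its day 1 arrays, and the call was kept in 9 of 17 alternatives and in 2 of the 6 fits without 1 array (adjusted p = 0.0256 to 0.164). Ndufaf5, another complex I factor, had an estimate of -0.82 (limma adjusted p = 0.0772), Sco1, which delivers copper to complex IV, one of -0.55 (0.0672), and Bcs1l, which inserts the Rieske protein, one of -0.61 (0.0892).

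Of 20 measured regulators of mitochondrial biogenesis, 1 fell and 0 rose, against 3.15% and 1.93% of all genes, with a median of -0.23. At an unadjusted p under 0.05, 7 (35.0%) were lower, against 17.0% of all genes, and in 7 all day 7 arrays lay below all day 1 arrays, against 19.1%. At the same level 1 was higher, against 10.6% of all genes. This was Ppard (0.42, limma adjusted p = 0.107), in which all day 7 arrays lay above all day 1 arrays. Pprc1, a growth-responsive relative of the coactivator PGC-1alpha, read 95.8, 98.9 and 94.9 on day 1 and 56.4, 57.6 and 67.4 on day 7, a log2 change of -0.67 (SE 0.11; limma adjusted p = 0.0268), and was called in 8 of 17 alternatives and in 1 of the 6 fits without 1 array (adjusted p = 0.013 to 0.117). Its values on the arrays numbered 2 lay with those of their own age. The coactivator gene Ppargc1b had an estimate of -0.45 (limma adjusted p = 0.102), the mitochondrial DNA polymerase Polg one of -0.51 (0.0876) and the transcription factor Yy1 one of -0.42 (0.0824). The common order of the arrays held in 4 of these 20 genes.

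Of 51 measured proteins of the mitochondrial ribosome, which translates the subunits encoded in mitochondrial DNA, 2 fell and 0 rose, against 3.15% and 1.93% of all genes, with a median of -0.31. At an unadjusted p under 0.05, 23 (45.1%) were lower, against 17.0% of all genes, and in 18 (35.3%) all day 7 arrays lay below all day 1 arrays, against 19.1%. Mrps22 read 203, 167 and 214 on day 1 and 101, 130 and 90.6 on day 7, a log2 change of -0.86 (SE 0.16; limma adjusted p = 0.0354). Mrpl49 read 177, 162 and 212 on day 1 and 112, 130 and 108 on day 7, a log2 change of -0.64 (SE 0.14; limma adjusted p = 0.0491). In both genes all day 7 arrays lay below all day 1 arrays. Mrpl49 lost its call in 10 of 17 alternatives, all 6 fits without 1 array among them (adjusted p = 0.0293 to 0.165), and Mrps22 in 6 of 17, of which 4 left out 1 array (0.0188 to 0.137). The estimates of Mrpl19 and Mrpl44 were -0.58 and -0.63 (limma adjusted p = 0.0909 and 0.0872). The common order of the arrays held in 48 of the 51 genes. On day 1 replicate 2 and day 7 replicate 2 the list median was -0.02 and 0.0021.

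Of 12 measured enzymes of the citric acid cycle, limma called none, against 3.15% of all genes lower and 1.93% higher. The list median was -0.35. All 12 estimates were below 0, against 52.0% of all genes, and 4 (33.3%) were lower at an unadjusted p under 0.05, against 17.0%. Mdh2, malate dehydrogenase, had an estimate of -0.55 (limma adjusted p = 0.106), Dlst, of the oxoglutarate dehydrogenase complex, one of -0.48 (0.0785), Idh2, isocitrate dehydrogenase, one of -0.44 (0.116) and Sucla2, a succinyl-CoA synthetase subunit, one of -0.49 (0.214). Of 10 genes for the exchange of ATP, phosphate, ions and protons across mitochondrial membranes, limma called none, against 3.15% and 1.93% of all genes. Their median was -0.28, and 3 (30.0%) were lower at an unadjusted p under 0.05, again against 17.0%. Ucp2, an inner membrane carrier, read 308, 215 and 257 on day 1 and 102, 179 and 137 on day 7, an estimate of -0.92 (SE 0.22; limma adjusted p = 0.0623), without overlap of the ages. It was called lower under 5 other settings of the limma analysis with at most 1 array left out (adjusted p = 0.0323 to 0.0493). Its muscle relative Ucp3 had an estimate of -0.85 (0.124), and was called with the mean of its probe sets (0.0338), the muscle mitochondrial creatine kinase Ckmt2 one of -0.85 (0.208), and the outer membrane channel Vdac3 one of -0.37 (0.254).

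Promoters of respiratory genes are known for binding sites of NRF1 and of GABP, an ETS family factor. The promoters of the 41 genes were read for these motifs. Whether the motifs bear on the common order of the arrays was not tested. RefSeq promoter entries of the rat assembly GRCr8, from 250 bases before to 50 bases after the start, were at hand for 37 of the 41. The NRF1 motif was searched as GCGCA, any base, then GCGC, and the ETS motif as CCGGAAG, each on both strands, and neither motif contains the other. The NRF1 motif occurred in 6 of the 37 (16.2%), against 4.25% of 33469 promoters of the same length. The ETS motif occurred in 12 of the 37 (32.4%), against 8.75%. Either occurred in 18 (48.6%), against 12.2%, and none of the 37 held both. Base composition was not matched, and the 33469 promoters were not limited to genes measured on the array. The median log2 change was -0.23 over the 18 genes with a motif and -0.28 over the 19 without.

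The 150 bases before the start are shown for genes of complexes I, II, III and V whose printed stretch holds a motif, so that the matches behind these shares can be seen in their surroundings. They run 5′ to 3′ on the strand of the gene, with the motif in capitals in either orientation. The first 4 hold the NRF1 motif and the last 2 the ETS motif.
Ndufs6, chr1:31797250-31797399, plus strand: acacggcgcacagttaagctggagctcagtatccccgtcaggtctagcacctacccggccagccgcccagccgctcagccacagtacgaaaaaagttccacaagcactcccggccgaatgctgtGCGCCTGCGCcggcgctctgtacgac
Sdha, chr1:30764403-30764552, plus strand: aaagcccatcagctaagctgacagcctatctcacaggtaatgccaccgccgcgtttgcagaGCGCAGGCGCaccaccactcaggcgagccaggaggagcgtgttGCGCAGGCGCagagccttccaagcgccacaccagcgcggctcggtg
Uqcrc1, chr8:118468073-118468222, plus strand: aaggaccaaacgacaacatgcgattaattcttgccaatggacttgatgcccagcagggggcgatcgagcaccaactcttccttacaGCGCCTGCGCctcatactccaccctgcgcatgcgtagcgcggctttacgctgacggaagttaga
Atp5po, chr11:44657484-44657633, minus strand: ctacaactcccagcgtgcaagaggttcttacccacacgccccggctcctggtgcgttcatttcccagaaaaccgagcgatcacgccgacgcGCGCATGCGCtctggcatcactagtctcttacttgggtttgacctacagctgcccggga
Sdhd, chr8:59850642-59850791, minus strand: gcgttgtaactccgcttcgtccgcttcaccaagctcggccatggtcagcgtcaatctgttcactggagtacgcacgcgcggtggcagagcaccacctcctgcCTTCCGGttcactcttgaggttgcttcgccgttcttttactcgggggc
Atp5f1a, chr18:73567387-73567536, plus strand: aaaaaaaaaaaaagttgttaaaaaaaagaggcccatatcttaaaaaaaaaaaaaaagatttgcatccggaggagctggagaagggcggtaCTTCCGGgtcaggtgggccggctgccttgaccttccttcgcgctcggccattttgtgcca
In Sdha the NRF1 motif occurred 2 times in this stretch, beginning 89 and 46 bases before the start. In Ndufs6, Uqcrc1 and Atp5po it began 26, 64 and 59 bases before it, and in Sdhd and Atp5f1a the ETS motif began 48 and 60 bases before it. These are matches of letters and do not show that a factor was bound in tendon.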

How the data were processed

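The authors deposited a linear intensity for each probe set on each array. MAS5 and RMA are named, per the submitters' processing notes, with neither role nor version, so how background and scale were treated is unknown here. A remaining difference of scale can shift many genes together with age. The table held 31099 probe sets, of which 57 were controls and 31042 were tested; 20826 named 1 gene, 436 several and 9780 none. Gene identifiers were matched to RefSeq's GRCr8 gene table for 20758 of the 20826. Intensities were transformed to log2(intensity + 1) and compared between ages by limma 3.58.1 (lmFit, eBayes; R 4.3.3). Tests were two-sided, had no covariate and were adjusted over all probe sets by Benjamini and Hochberg's method. Intervals use the moderated standard error. Permutation tests used scipy 1.17.1. The fit was also run on simulated intensities with independent noise for each gene and array, which lack the common order of the arrays.

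The members and all lists were chosen with earlier results of these data known, and were written from textbook knowledge. Array values are given for the 3 members of a complex with the smallest p, those with the extreme changes and the highest mean, and for the cytochrome oxidase isoforms; up to 4 genes are named from each other pathway list. Ndufb8, Cox7b, Ndufv2, Ndufs3, Ndufs7, Ndufa9, Ndufb9 and Uqcrc2 were named after their values were seen, as were array values of called pathway genes and Ucp2. Cox6b1, Cox7a2l and Ppard, further genes of the pathway lists, were also named after their values were seen. The alternatives were other scalings, pseudocount 16, bright probe sets only, the mean or the plain probe sets of a gene, array weights, robust variances with an intensity trend, each array left out, and a block for the replicate number. For arrays the signal over background and the number of arrays limit the precision.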

Additional observations from a re-analysis of the deposited data

How the results depend on the processing

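Of the 41 subunits, 0 were called higher under any alternative, and 0 lower under each but the fit without both arrays numbered 2, which called 2 lower and moved the median to -0.474. With 1 array left out the median ranged from -0.351 to -0.162. Over all genes, 274 higher and 448 lower calls became 469 higher with 75th percentile scaling, 182 higher with pseudocount 16, 538 higher and 897 lower with array weights, and 4 to 271 higher and 0 to 382 lower with 1 array left out. The fewest calls were left without day 7 replicate 1, where 4 genes were called higher and 0 lower. With the replicate number as a block, 25 genes were called higher and 8 lower, with 0 subunits among either. Deviations of same-numbered arrays correlated at 0.13, -0.27 and -0.09, and 2 of 6 arrays correlated best with their own number. With so few arrays per age, these values cannot decide whether the numbers pair the samples, and the labels do not say. The 4 called pathway genes lost their call under some of the 17 alternatives, Mrpl49 in 10, Pprc1 in 9, Timmdc1 in 8 and Mrps22 in 6; quantile normalization and 75th percentile scaling ended those of Mrpl49, Pprc1 and Timmdc1, pseudocount 16 those of Mrpl49, Mrps22 and Timmdc1, and the replicate block all 4. With at most 1 array left out, Ucp2 gained a call under 5 settings, and Bcs1l, Dlst, Mrpl44, Ndufaf5, Polg, Sco1, Ucp3 and Yy1 under 1 each. Estimates near 0 changed sign. With 75th percentile scaling Cox4i1 became 0.08, Cox6c 0.01, Cox7c 0.02 and Cox8a 0.09, and with quantile normalization Cox7c became 0.0072 and Cox8a 0.05. Array weights gave -0.07 for Cox5a. Without both arrays numbered 2, a choice made after seeing the data, Cox5a became -0.26, Cox7a1 -0.13 and Ndufa1 -0.09. With 1 array left out, Cox4i1 ranged from -0.11 to 0.03, Cox5a from -0.14 to 0.17, Cox7a1 from -0.08 to 0.23, Cox8a from -0.10 to 0.08 and Ndufa1 from -0.06 to 0.10. Ndufv3 became 0.09 with the mean of its probe sets and 0.54 with the plain one. Apart from the fits with fewer arrays, the cause of these shifts was not tested.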

Other observations

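Ndufv3, an accessory subunit of the complex I matrix arm known to have a long and a short splice form, had probe sets with estimates of opposite sign. They were singled out after their values were seen. The brighter one read 393, 293 and 446 on day 1 and 275, 357 and 243 on day 7, with the order of arrays seen in the other subunits and a log2 change of -0.37 (SE 0.20; limma adjusted p = 0.320). The dimmer one read 41.3, 39.9 and 30.3 on day 1 and 61.9, 43.9 and 57.7 on day 7, with all day 7 arrays above all day 1 arrays and a log2 change of 0.54 (SE 0.17; limma adjusted p = 0.124). Neither passed the threshold, and the difference between the probe sets was not tested. Which transcripts each probe set detects is not given in the sources used here.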
